A study of Mus musculus with 32 samples.

Results

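The comparison of HSP990 with vehicle in wild-type striatum covered 17 of the 32 arrays of the study, chosen by their titles: 10 from wild-type mice given HSP990 and 7 from wild-type mice given vehicle. The striatum is the input nucleus of the basal ganglia, built mainly of medium spiny neurons. All mice of both groups were male, 12 weeks old and of the genetic background CBA X C57Bl/6, and none of these 17 carried the R6/2 transgene. HSP990 was given by oral gavage as a suspension in a saline formulation, which the control mice received alone. The design text gives 12 mg/kg and 4 h of treatment. Mice were dosed in the afternoon, and most dissections fell at the close of the daily light period. The question addressed is which transcripts an acute dose of the inhibitor moves in brain tissue without the disease transgene, here beyond the chaperone genes. The other 15 arrays, from R6/2 mice, which carry a fragment of the mutant human huntingtin gene (7 vehicle and 8 HSP990), enter only the estimate of the spread of each gene and a short comparison near the end.

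HSP90 is an abundant chaperone that holds kinases, steroid hormone receptors and other signalling proteins, known as its clients, in a form that can act. Inhibitors of its ATPase release or destabilise these clients, and cells answer with induction of other chaperone genes. The glucocorticoid receptor, which binds its hormone only in complex with HSP90, is a classical client, and in the brain it drives a daily rhythm of target genes in neurons, glia and vessels.

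Values are log2 signals of 1 probe set per gene, and changes are log2 differences of group means with the standard error of a limma fit over 18193 genes. A gene counts as called where limma's Benjamini-Hochberg adjusted p is below 0.05, and values are levels on the log2 scale unless named as changes. Where 3 values are given for a group, they are the lowest, the median and the highest of its 7 vehicle or 10 HSP990 arrays. Since the labels number arrays and not animals, each p reflects only how these samples spread. Array medians lay between 5.73 and 5.78, and precision is limited by how many arrays there are. Wild-type vehicle replicate 4 stood apart in glucocorticoid target genes (list mean 9.44 against 8.09 to 8.44 in the other 6 vehicle arrays). The 3′ bias of the RNA, taken as the 3′ minus 5′ difference of control probe sets, was 0.82 to 2.45 on vehicle and 0.64 to 1.61 on HSP990, and with it as a covariate 151 of the 167 called genes named by rule were still called. R6/2 HSP990 replicate 5, which enters the estimate of the spread, had a 3′ bias of 4.56, against 0.78 to 2.11 in the other R6/2 arrays. No fit left out that array alone. The 12 markers of medium spiny neurons had array means of 11.66 to 12.07 on vehicle and 11.65 to 12.1 on HSP990, all above the median of all probe sets, and none was called (0 at an unadjusted p under 0.05 in the limma fit).

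In total 1056 genes were called (5.8% of those tested), 407 higher (2.24%) and 649 lower (3.57%) with HSP990. At an unadjusted p under 0.05 there were 3363 genes. Of the genes called higher, 28 rose at least 2-fold, 123 had a log2 change of 0.5 to 1, 221 of 0.25 to 0.5 and 35 under 0.25. Of those called lower, 15 fell at least 2-fold, 122 had a fall of 0.5 to 1 on the log2 scale, 408 of 0.25 to 0.5 and 104 under 0.25. The called falls outnumbered the rises and had a median change of -0.35, against 0.42 among the rises. Which were more numerous depended on the setting: rises were with 3′ bias as a covariate in the 17 wild-type arrays (706 higher, 645 lower) and with the second probe set of each gene (262 higher, 169 lower). No overlap of the groups was found for 130 genes called higher and 126 called lower, against 1.47% of all genes in either direction. When all probe sets of each gene were averaged, 30 of the 167 called genes named by the rule were not called: Aen, Atf4, Atg4d, Bmpr1a, Cnot4, Dusp7, Eif2b2, Eif2s2, Fbxo28, Gadd45b, Kcns2, Kdm1a, Klf9, Nbr1, Ndufb8, Pde4d, Pgr, Qars, Rab40c, Rbm25, Slc35b2, Slc5a3, Snhg5, Srf, Tiparp, Tsc22d1, Usp42, Wee1, Zbtb17 and Zbtb34. Most of the calls were outside the chaperone list of 109 genes: 376 of the rises and 645 of the falls.

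**Figure D1:**
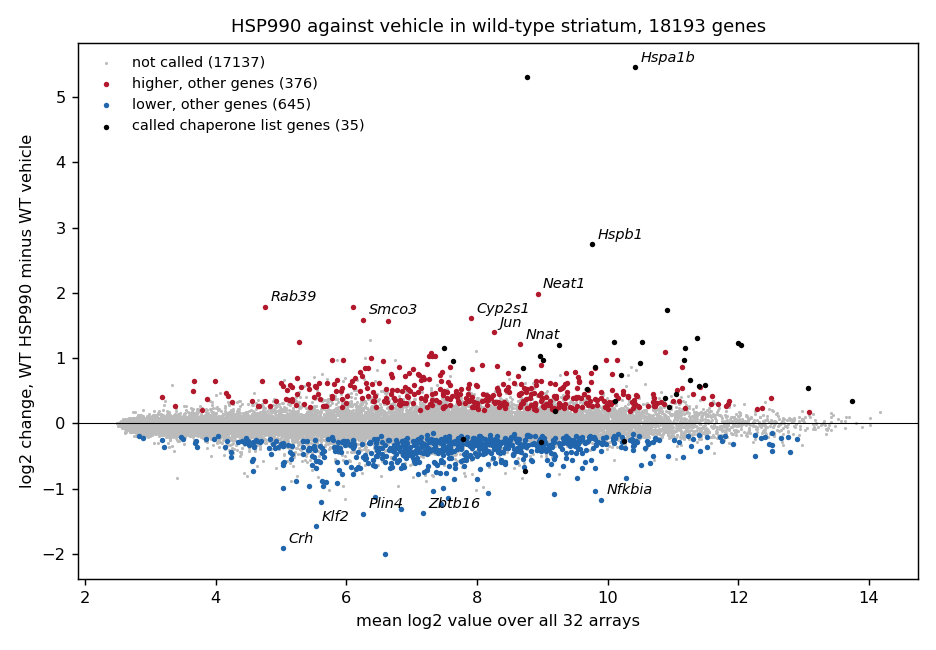
Log2 change of each of 18193 genes, wild-type HSP990 minus wild-type vehicle, against its mean log2 value over all 32 arrays; each point is a gene. Black points are the 35 called genes of the chaperone list, red points 376 other genes called higher and blue points 645 other genes called lower, most of them within 1 log2 unit of 0.

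The chaperone genes set the scale of the response. Hspa1b and Hspa1a, near-identical copies that encode inducible HSP70 and may share signal, had log2 changes of 5.46 and 5.31, the small heat shock protein gene Hspb1 2.75, the HSP40 gene Dnajb1 1.74 and the HSP70 co-chaperone gene Bag3 1.15. Outside the list the largest rise was that of Neat1 (1.99) and the largest fall of a gene with an established symbol that of Crh (-1.92).

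Outside the chaperone list Rab39, Cyp2s1, Tnfsf9, P4ha2, Lpar6 and Fxr1 were among the rises whose groups did not overlap. Rab39, a small GTPase of vesicle traffic, had values of 3.19, 3.5 and 3.89 on vehicle and 4.97, 5.2 and 5.92 on HSP990 and rose 3.45-fold (log2 change 1.79 ± 0.14, adjusted p = 6.57e-11). Cyp2s1, a cytochrome P450 enzyme, had values of 7.13, 7.33 and 8.07 on vehicle and 8.23, 9.02 and 9.59 on HSP990 and rose 3.06-fold (log2 change 1.61 ± 0.16, adjusted p = 9.38e-09). Tnfsf9, a cytokine of the tumour necrosis factor family, had values of 4.43, 4.51 and 4.92 on vehicle and 5.53, 5.9 and 6.14 on HSP990 and rose 2.37-fold (log2 change 1.25 ± 0.10, adjusted p = 1.03e-10). In each of these 3 genes every HSP990 array was above every vehicle array. Rab39 and Tnfsf9 are dim genes, whose mean does not exceed 5.76, the median over probe sets, and folds of such genes carry more doubt. The collagen-modifying enzymes P4ha2, a prolyl hydroxylase, and Plod1, a lysyl hydroxylase, both rose. P4ha2 was at 6.54 to 7.08 on vehicle and 7.57 to 8.0 on HSP990, with medians of 6.75 and 7.86 (2.04-fold, log2 change 1.03 ± 0.09, adjusted p = 1.6e-09). Plod1 was at 6.26 to 7.19 on vehicle and 7.62 to 8.41 on HSP990, with medians of 6.99 and 7.82 (2.05-fold, log2 change 1.04 ± 0.13, adjusted p = 1.41e-06), but its other probe set had a change of -0.03.

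Jun, a subunit of the transcription factor AP-1, had values of 7.33, 7.59 and 8.13 on vehicle and 8.6, 8.88 and 9.6 on HSP990 and rose 2.64-fold (log2 change 1.4 ± 0.21, adjusted p = 3.84e-05). Lpar6, a receptor for lysophosphatidic acid, was at 6.34 to 7.23 on vehicle and 7.59 to 8.01 on HSP990, with medians of 6.66 and 7.77 (2.1-fold, log2 change 1.07 ± 0.10, adjusted p = 1.67e-09). Gprasp2, which sorts G protein-coupled receptors after endocytosis, was at 9.53 to 10.14 on vehicle and 10.69 to 11.27 on HSP990, with medians of 9.89 and 10.91 (2.13-fold, log2 change 1.09 ± 0.13, adjusted p = 2.77e-07). Both groups stood fully apart for these 3 genes. Stat6, a transcription factor of interleukin signalling, rose 2.0-fold (log2 change 1.0 ± 0.15, adjusted p = 2.17e-05), with its lowest HSP990 array (6.12 to 7.15 in all) just inside the vehicle range of 5.07 to 6.16. Cys1, which encodes the ciliary protein cystin, rose 2.04-fold (log2 change 1.03 ± 0.11, adjusted p = 1.39e-07), although its other probe set had a change of 0.06 only. Fxr1, an RNA-binding relative of the fragile X protein, had values of 8.13, 8.4 and 8.58 on vehicle and 9.09, 9.24 and 9.4 on HSP990 and rose 1.85-fold (log2 change 0.89 ± 0.06, adjusted p = 3.38e-12). Swt1, a nuclear RNA endonuclease, Naa16, a subunit of an N-terminal acetyltransferase, and Cybc1, needed for the phagocyte NADPH oxidase, had changes of 0.90 ± 0.08, 0.83 ± 0.08 and 0.79 ± 0.07, again with no overlap. For Fxr1, Swt1 and Naa16 every probe set moved upwards, whereas the other probe set of Cybc1 had a change of -0.03.

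A second kind of large rise came with a wide spread on vehicle. Neat1, the long noncoding RNA that scaffolds nuclear paraspeckles, had values of 6.21, 8.26 and 9.18 on vehicle and 9.01, 9.92 and 10.56 on HSP990 and rose 3.96-fold (log2 change 1.99 ± 0.42, adjusted p = 0.00245). Vehicle replicates 2 and 3, at 6.36 and 6.21, were far below the other 5 vehicle arrays, the groups overlapped, and the second probe set of the gene had a change of -0.07. Smco3 was at 3.94 to 6.73 on vehicle and 6.42 to 7.73 on HSP990, with medians of 5.76 and 7.23 (3.01-fold, log2 change 1.59 ± 0.31, adjusted p = 0.00108). Nnat, the imprinted gene of neuronatin, a small membrane protein, was at 7.28 to 9.41 on vehicle and 9.36 to 10.88 on HSP990, with medians of 8.64 and 9.69 (2.32-fold, log2 change 1.21 ± 0.30, adjusted p = 0.0102). Mns1, a protein of meiosis and flagella, rose 1.97-fold (log2 change 0.98 ± 0.28, adjusted p = 0.0278), and it was not called when any of 4 arrays was left out (adjusted p = 0.0543 to 0.0852).

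**Figure D2:**
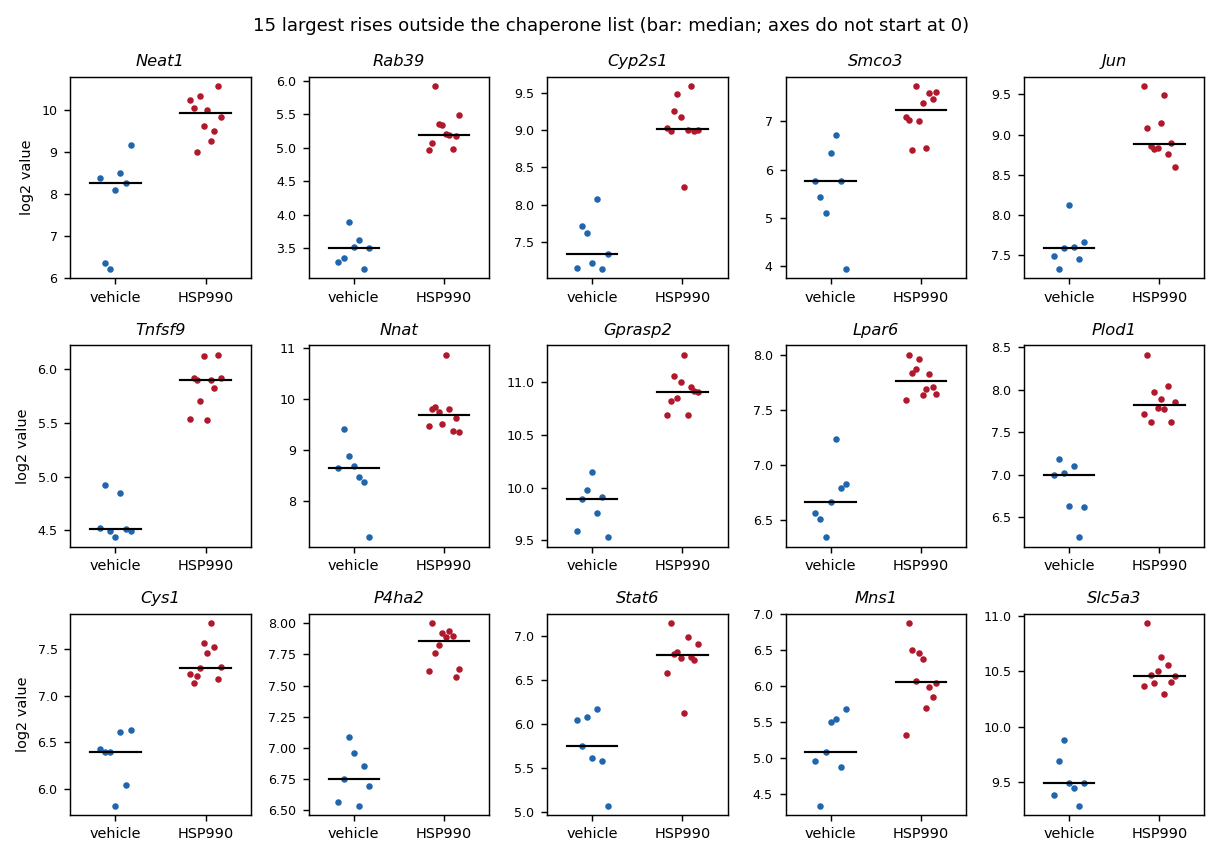
Log2 values of the 15 genes with the largest rises outside the chaperone list, one panel per gene, for 7 vehicle (blue) and 10 HSP990 (red) wild-type arrays; points are arrays and bars are group medians. The panels of Rab39, Tnfsf9 and P4ha2 show groups that stand apart, while those of Neat1, Smco3, Nnat and Mns1 show vehicle arrays spread over more than 1 log2 unit.

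Slc5a3, which carries sodium and myo-inositol into cells, and Mrps6, a mitochondrial ribosomal protein gene, both rose and share a locus. Slc5a3 was at 9.29 to 9.88 on vehicle and 10.29 to 10.94 on HSP990, with medians of 9.49 and 10.46 (1.96-fold, log2 change 0.97 ± 0.09, adjusted p = 4.2e-09), and Mrps6 at 8.99 to 9.41 on vehicle and 9.71 to 10.21 on HSP990, with medians of 9.2 and 9.8 (1.56-fold, log2 change 0.65 ± 0.08, adjusted p = 7.87e-07). The gene models of both overlap over 29138 bases on chromosome 16 (chr16:92058336-92087473 in the RefSeq table, GRCm38.p6), and the part of shared transcripts in their signals was not tested. With the mean of its probe sets the change of Slc5a3 was 0.60 (adjusted p = 0.177). Of the 1054 called genes with a gene model in that table, 8 pairs overlapped, 6 of them with changes in the same direction.

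Sequences upstream of the genes that rose were read from the RefSeq promoter table, which holds 250 bases before to 50 bases after the start of 14452 of the genes tested. The heat shock element, the DNA motif of heat-induced genes, was searched as 3 alternating units, GAA, TTC and GAA or TTC, GAA and TTC, with 2 free bases between neighbouring units. The spellings together cover both strands, and matches may overlap. It was found in 0.609% of all promoters, in 3.04% of those of genes called higher (10 of 329), and in 0.193% of those of genes called lower (1 of 519). Among called chaperone genes 4 of 26 promoters held it, and outside the chaperone list 6 of 303 (1.98%). The sites are shown since they set the non-chaperone genes beside the chaperone genes; each line gives 30 bases, 5′ to 3′ on the strand of the gene, with the matched units in capitals:
Hspe1: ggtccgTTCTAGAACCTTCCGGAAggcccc
Chordc1: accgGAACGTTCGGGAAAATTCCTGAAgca
Hsph1: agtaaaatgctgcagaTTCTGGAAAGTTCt
Nnat: ggcagagcaGAATCTTCTGGAAcggtgtta
Kctd18: ctccggGAAAATTCAGGAACGTTCttgggg
Cep57: cgctGAAGGTTCCAGAAgccctagcctttg
Slc35c1: agaatgacaGAACCTTCCAGAAaatgggag
Hnrnpa2b1: tagtgggggGAAGGTTCTAGAAaagcggcg
The first 3 genes encode chaperones or co-chaperones and rose by 1.3, 1.25 and 1.23 on the log2 scale. Hspe1 lies head to head with Hspd1 (1.16), and the same site, at chr1:55088053-55088082, plus strand, stands in both promoters. The sites of Chordc1 (chr9:18292259-18292288, plus strand) and Hsph1 (chr5:149636287-149636316, minus strand) lie across or after the start. The other 5 are genes outside the list, chosen for the match after the values were seen: Nnat (chr2:157559909-157559938, plus strand, inside the gene model of Blcap), Kctd18 (chr1:57970219-57970248, minus strand), the centrosome protein gene Cep57 (chr9:13827274-13827303, minus strand), the fucose transporter gene Slc35c1 (chr2:92459958-92459987, minus strand) and the RNA-binding protein gene Hnrnpa2b1 (chr6:51469863-51469892, minus strand). All coordinates are GRCm38.p6, and the sites of Cep57, Slc35c1 and Hnrnpa2b1 lie inside the gene's own model. The changes of these 5 genes were, in the same order, 1.21, 0.86, 0.44, 0.42 and 0.39. The sixth match was in the clone gene A330023F24Rik. The longest run of units outside the chaperone genes was that of Kctd18, at positions -158 to -141 from its start. A stretch of 143 bases of its window, part of what lies outside gene models (chr1:57970142-57970284, minus strand), reads:
Kctd18: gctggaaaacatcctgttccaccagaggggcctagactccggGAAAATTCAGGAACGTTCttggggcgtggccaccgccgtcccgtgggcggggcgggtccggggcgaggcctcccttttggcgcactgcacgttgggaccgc
Kctd18 was at 6.77 to 7.43 on vehicle and 7.94 to 8.16 on HSP990, with medians of 7.3 and 8.06, so the groups stood apart (1.81-fold, log2 change 0.86 ± 0.09, adjusted p = 2.26e-08). A match describes these letters only, and no match in this window says nothing of sites elsewhere.

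Some genes of protein turnover rose. Of 16 analysed genes of ubiquitin supply, p97 and ubiquitin shuttling, 4 were called higher and none lower, with a median change of 0.08 against -0.03 over all genes. Without HSP990 replicate 2 this median was 0.06. Zfand2a, a stress-induced protein that associates with the proteasome, was at 9.04 to 9.64 on vehicle and 9.55 to 10.15 on HSP990, with medians of 9.23 and 9.97 (1.55-fold, log2 change 0.63 ± 0.13, adjusted p = 0.00131). Ubqln1, which carries ubiquitinated proteins to the proteasome, was at 10.73 to 11.22 on vehicle and 11.39 to 11.59 on HSP990, with medians of 11.07 and 11.46 (1.36-fold, log2 change 0.44 ± 0.07, adjusted p = 0.00019), and Ubxn4, an adaptor of p97 in the endoplasmic reticulum, at 9.82 to 10.29 on vehicle and 10.3 to 10.73 on HSP990, with medians of 10.13 and 10.54 (1.34-fold, log2 change 0.42 ± 0.09, adjusted p = 0.00238). For Ubqln1 and Ubxn4 the groups did not overlap. The shuttle gene Rad23b had a change of 0.44 (adjusted p = 0.0438), and it was not called in 13 of the 17 leave-one-out fits, each of which omits 1 wild-type array (adjusted p = 0.0503 to 0.13).

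Of 39 proteasome subunit genes 1 was called (2.56%, near the 2.24% of all genes called higher), the assembly chaperone Psmd10 (0.23, adjusted p = 0.0248). Without wild-type vehicle replicate 1 or 5 Psmd10 was not called (adjusted p = 0.0705 to 0.0788). Among 33 autophagy genes the cargo receptor Nbr1 was higher (0.29, adjusted p = 0.0316) and the protease Atg4d lower (-0.27, adjusted p = 0.0236). These were 3.03% each way, near the 2.24% and 3.57% of all genes. Nbr1 and Atg4d were not called in 7 and 4 leave-one-out fits (adjusted p = 0.0507 to 0.0944 and 0.0504 to 0.0789). Deubiquitinases of the USP family gave 1 rise and 3 falls of 48 (2.08% and 6.25%, beside 2.24% and 3.57% of all genes). Usp2 was at 9.91 to 10.35 on vehicle and 9.3 to 9.78 on HSP990, with medians of 10.12 and 9.64 (1.45-fold, log2 change -0.54 ± 0.10, adjusted p = 0.000438), and Usp3 at 7.68 to 8.42 on vehicle and 7.16 to 7.62 on HSP990, with medians of 8.09 and 7.53 (1.45-fold, log2 change -0.54 ± 0.11, adjusted p = 0.00143), both with no overlap. The third fall was that of Usp42 (-0.20, adjusted p = 0.0331) and the rise that of Usp33 (0.41, adjusted p = 0.0265), not called in 9 and 4 leave-one-out fits (adjusted p = 0.0526 to 0.0905 and 0.0538 to 0.081). F-box genes, the substrate receptors of a class of ubiquitin ligases, gave 6 falls (9.09%) and no rise of 66. The largest of the 5 named were Fbxo28 (-0.38, adjusted p = 0.00234), Fbxo16 (-0.32, adjusted p = 0.00499) and Fbxo33 (-0.30, adjusted p = 0.00411). Fbxo42 (-0.20) and Fbxo31 (-0.27) followed, and Fbxo31 was not called in 11 leave-one-out fits (adjusted p = 0.0537 to 0.101). The second probe sets of Fbxo28, Fbxo31, Fbxo33 and Fbxo42 had changes of -0.07, -0.21, -0.17 and -0.03. With these probe sets none of the genes was called (adjusted p = 0.697, 0.1696, 0.2716 and 0.8975). Among 52 TRIM ligase genes Trim65 and Trim17 were called higher (0.69 and 0.65) and Trim27 lower (-0.56). These were 3.85% and 1.92% of the list, near the shares of all genes. Trim65 is dim, and without vehicle replicate 1 or 3 Trim17 was not called (adjusted p = 0.0529 to 0.0703).

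Genes of the integrated stress response, which ATF4 drives when translation is curbed, were called higher in 11 of 29 cases, where 2.24% of all genes were, and lower in 1, with a median change of 0.24. Over the mean of the probe sets of each gene 11 were again called higher. With the second probe set 2 of 20 were, with a median change of 0.13. Atf4 itself, the transcription factor, was at 9.77 to 10.2 on vehicle and 10.12 to 10.78 on HSP990, with medians of 9.96 and 10.33 (1.34-fold, log2 change 0.42 ± 0.10, adjusted p = 0.00991). Over the mean of its 3 probe sets the change of Atf4 was 0.22 and was not called (adjusted p = 0.116). Ddit3, a transcription factor of the same response, had values of 8.44, 8.81 and 9.03 on vehicle and 9.04, 9.4 and 9.62 on HSP990 and rose 1.51-fold (log2 change 0.59 ± 0.08, adjusted p = 1.39e-05), with no overlap. Its second probe set had a change of 0.29 and was not called (adjusted p = 0.0988). The gene model of Ddit3 overlaps that of the called gene Mbd6 by 77 bases. Chac1, an enzyme that degrades glutathione, was at 6.65 to 7.28 on vehicle and 7.14 to 8.11 on HSP990, with medians of 6.97 and 7.68 (1.67-fold, log2 change 0.74 ± 0.14, adjusted p = 0.000745). Psph, which makes serine, was at 7.88 to 8.14 on vehicle and 8.21 to 8.88 on HSP990, with medians of 7.97 and 8.58 (1.45-fold, log2 change 0.53 ± 0.10, adjusted p = 0.000506), and its gene model overlaps that of the called chaperonin gene Cct6a by 88 bases. Slc7a11, a cystine transporter, and Trib3, a pseudokinase and a dim gene, had changes of 0.55 ± 0.13 and 0.36 ± 0.08. Sesn2, a stress-induced regulator of growth signalling, had a change of 0.40 ± 0.11. The second probe sets of Slc7a11, Trib3 and Sesn2 had changes of 0.17, 0.29 and 0.23 and were not called (adjusted p = 0.37, 0.0521 and 0.144). The only called member that fell was the aminotransferase gene Gpt2 (-0.62, adjusted p = 0.00823).

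The ATF4 site TGATGCAA (or TTGCATCA, its reverse complement) was in 0.803% of all promoters and in 3 of 11 promoters of the members of the ATF4 list called higher. These were Chac1, Slc7a11 and Atf3, a gene named after its values were seen, whose change was 0.27. The stretch upstream of Chac1 (chr2:119351042-119351241, plus strand) is shown since Chac1 rose most in this list; it ends 1 base before the transcription start, with the site in capitals:
Chac1: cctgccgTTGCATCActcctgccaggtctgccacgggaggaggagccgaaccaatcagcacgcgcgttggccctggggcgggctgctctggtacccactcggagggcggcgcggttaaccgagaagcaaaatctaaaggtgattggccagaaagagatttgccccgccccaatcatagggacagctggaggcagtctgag
Of 19 cytosolic aminoacyl-tRNA synthetase genes, which charge transfer RNAs and include targets of ATF4, 1 was called higher and 1 lower, with a median of 0.01. Each way this was 5.26%, beside 2.24% and 3.57% of all genes. Cars was at 6.19 to 7.27 on vehicle and 6.94 to 7.91 on HSP990, with medians of 6.87 and 7.62 (1.67-fold, log2 change 0.74 ± 0.16, adjusted p = 0.00285), but its second probe set had a change of -0.07. Qars was lower (-0.29, adjusted p = 0.0173).

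In the endoplasmic reticulum branch of the stress response the called genes were lower. Of 27 chaperone and XBP1-branch genes of this organelle 4 were called lower and none higher (14.8% and 0%). Over all genes 3.57% were called lower and 2.24% higher. The list median was -0.08, and 8 of the 27 changes were positive. Xbp1, the transcription factor of this branch, had values of 11.01, 11.11 and 11.28 on vehicle and 10.48, 10.66 and 10.78 on HSP990 and fell 1.42-fold (log2 change -0.50 ± 0.07, adjusted p = 2.62e-06), with no overlap and all 4 probe sets downwards. Sdf2l1 and Manf, proteins induced by stress of this organelle, had changes of -0.42 and -0.34 (adjusted p = 0.0247 and 0.0139). Sec61b, a subunit of the translocation channel, fell with no overlap of the groups (-0.23, adjusted p = 0.00151). Without wild-type vehicle replicate 5 the call of Sdf2l1 was lost (adjusted p = 0.0541).

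Lists of oxidative, metal, hypoxic and genotoxic stress held 0 to 4 called genes each. The shares called higher and lower were 9.52% and 0% of NRF2 targets, 10.0% and 10.0% of p53 targets and 4.35% and 8.7% of HIF targets. They were 0% and 14.3% of aryl hydrocarbon receptor genes and 0% both ways of metallothionein and zinc response genes. Over all genes the shares were 2.24% and 3.57%. The transcription factor genes Nfe2l2 (NRF2), Hif1a and Ahr had changes of 0.10 ± 0.14, 0.06 ± 0.08 and -0.02 ± 0.10, none of them called. Of 21 NRF2 target and glutathione genes, Slc7a11 and Gclc, the rate-limiting enzyme of glutathione synthesis (0.31, adjusted p = 0.0307), were called higher, Gclc not in 5 leave-one-out fits (adjusted p = 0.0509 to 0.0845). None of the 6 metallothionein and zinc response genes was called (3 at an unadjusted p under 0.05 in the same limma fit), and the member with the smallest p was the zinc exporter Slc30a1 (0.20, adjusted p = 0.0943). Of 20 p53 targets, Sesn2 and the DNA damage gene Gadd45a (0.49) were called higher and Sesn1 (-0.30) and the nuclease Aen (-0.27) lower. Gadd45a was not called in 8 leave-one-out fits (adjusted p = 0.0532 to 0.112), nor Aen without vehicle replicate 3 or 6 (0.0525 to 0.0538). Of 23 HIF targets, P4ha2 was called higher and Slc2a1 and Hif3a lower. Slc2a1, the glucose transporter of brain endothelium, had values of 10.17, 10.75 and 11.36 on vehicle and 9.77, 9.93 and 10.1 on HSP990 and fell 1.78-fold (log2 change -0.83 ± 0.11, adjusted p = 8.22e-06), with no overlap. Hif3a, an inhibitory HIF subunit, was at 6.72 to 7.57 on vehicle and 6.43 to 6.92 on HSP990, with medians of 7.38 and 6.54 (1.61-fold, log2 change -0.68 ± 0.10, adjusted p = 4.33e-05). Of 7 aryl hydrocarbon receptor genes Tiparp, a feedback enzyme of that receptor, was called lower (-0.56, adjusted p = 0.00112).

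Klf2, Klf4 and Sap30, all regulators of transcription, were among the large falls. Klf2, a transcription factor best known from vessel walls under flow, had values of 6.07, 6.46 and 6.77 on vehicle and 4.69, 4.85 and 5.21 on HSP990 and fell 2.99-fold (log2 change -1.58 ± 0.11, adjusted p = 3.51e-12). Klf4, its relative in the same cells, had values of 6.03, 6.17 and 6.76 on vehicle and 4.94, 5.13 and 5.26 on HSP990 and fell 2.31-fold (log2 change -1.21 ± 0.10, adjusted p = 1.03e-10). Sap30, a subunit of the SIN3 histone deacetylase complex, had values of 7.29, 7.54 and 7.82 on vehicle and 6.34, 6.58 and 6.87 on HSP990 and fell 2.0-fold (log2 change -1.0 ± 0.08, adjusted p = 3.17e-10). In all 3 the highest HSP990 array was below the lowest vehicle array. Klf2 and Klf4 are dim, as are Nostrin and Zfp189 below. Plekhf1, a protein of endosomes and lysosomes, was at 6.57 to 7.5 on vehicle and 5.69 to 6.19 on HSP990, with medians of 7.31 and 6.08 (2.19-fold, log2 change -1.13 ± 0.13, adjusted p = 4.01e-07), and Nostrin, which binds endothelial nitric oxide synthase, at 6.05 to 6.38 on vehicle and 5.14 to 5.6 on HSP990, with medians of 6.21 and 5.3 (1.86-fold, log2 change -0.90 ± 0.10, adjusted p = 7.63e-08), again apart. Mpp7, a scaffold of cell polarity, was at 8.04 to 8.66 on vehicle and 6.2 to 7.93 on HSP990, with medians of 8.1 and 6.94 (2.36-fold, log2 change -1.24 ± 0.25, adjusted p = 0.0014). The groups did not overlap for Mpp7 and its 5 probe sets all moved downwards, although the HSP990 arrays were spread over 1.73 log2 units.

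**Figure D3:**
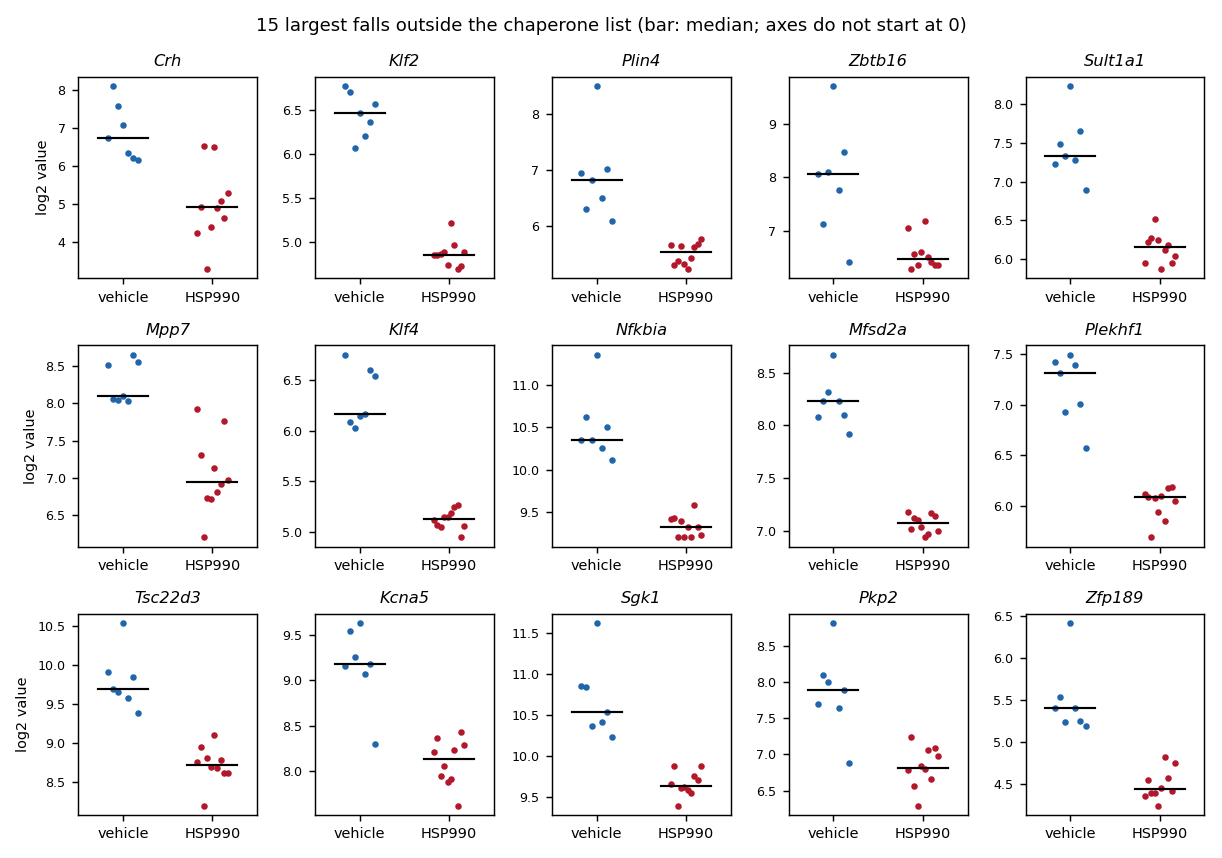
Log2 values of the 15 genes with the largest falls outside the chaperone list, one panel per gene, for 7 vehicle (blue) and 10 HSP990 (red) wild-type arrays; points are arrays and bars are group medians. The vehicle replicate 4 is the highest vehicle array for Plin4, Nfkbia and Zfp189 and stands above the rest there, while Klf2 and Klf4 show narrow groups that stand apart.

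Target genes of the glucocorticoid receptor were often called lower: of 27 analysed, 14 fell, where 3.57% of all genes were, and none higher. The median change was -0.67, and 26 of the 27 changes were negative. The receptor gene itself, Nr3c1, was at 8.49 to 9.68 on vehicle and 9.13 to 9.57 on HSP990, with medians of 9.07 and 9.37 and was not called (0.21, adjusted p = 0.522). Mfsd2a, the lipid transporter of brain endothelium, had values of 7.91, 8.23 and 8.67 on vehicle and 6.94, 7.07 and 7.18 on HSP990 and fell 2.22-fold (log2 change -1.15 ± 0.11, adjusted p = 2.11e-09). Nfkbia, the inhibitor of NF-kappa-B, had values of 10.11, 10.35 and 11.36 on vehicle and 9.2, 9.32 and 9.58 on HSP990 and fell 2.25-fold (log2 change -1.17 ± 0.13, adjusted p = 6.17e-08). Tsc22d3, the leucine zipper protein that glucocorticoids induce, had values of 9.39, 9.68 and 10.54 on vehicle and 8.2, 8.72 and 9.1 on HSP990 and fell 2.12-fold (log2 change -1.08 ± 0.14, adjusted p = 1.95e-06). For these 3 and for Sgk1, Plin4, Sult1a1 and Mertk the groups did not overlap, and vehicle replicate 4 was the highest array of each. Sgk1, a kinase that controls ion transport, was at 10.24 to 11.63 on vehicle and 9.39 to 9.88 on HSP990, with medians of 10.54 and 9.64 (2.05-fold, log2 change -1.04 ± 0.20, adjusted p = 0.000752). Plin4, a coat protein of lipid droplets, was at 6.1 to 8.5 on vehicle and 5.23 to 5.77 on HSP990, with medians of 6.82 and 5.53 (2.61-fold, log2 change -1.38 ± 0.33, adjusted p = 0.00856), and the sulfotransferase gene Sult1a1 at 6.89 to 8.23 on vehicle and 5.87 to 6.52 on HSP990, with medians of 7.34 and 6.15 (2.48-fold, log2 change -1.31 ± 0.28, adjusted p = 0.00235). Mertk, a receptor kinase for the engulfment of debris, was at 8.28 to 8.82 on vehicle and 7.63 to 8.04 on HSP990, with medians of 8.51 and 7.8 (1.62-fold, log2 change -0.70 ± 0.11, adjusted p = 4.27e-05). The transcription factor gene Zbtb16 was at 6.42 to 9.7 on vehicle and 6.29 to 7.18 on HSP990, with medians of 8.07 and 6.47 (2.6-fold, log2 change -1.38 ± 0.31, adjusted p = 0.00418), with vehicle replicates 2 and 7 inside the HSP990 range.

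The array mean over the 27 genes was 7.75 to 7.91 on HSP990 and 8.09 to 9.44 on vehicle, so no treated array reached a vehicle array. Without vehicle replicate 4, 14 members were again called lower and the median change was -0.46. The change of Zbtb16 was then -1.09 (adjusted p = 0.0135). The full glucocorticoid response element, AGAACA and TGTTCT with 3 free bases between them, to which the receptor binds as a dimer, was found in 2 of 14452 promoters, and 1 of these was that of Sgk1. Its 30 bases (chr10:21993693-21993722, plus strand), inside the Sgk1 gene model and at positions -189 to -175 from the start, are shown with the element in capitals:
Sgk1: atgcggaaAGAACAGAATGTTCTcggagat
A looser spelling, GNACA and TGTNC with the same gap, was in 0.422% of all promoters, in 0.963% of those of genes called lower (5 of 519) and in 4.55% of those that fell at least 1.5-fold (3 of 66). Besides Sgk1 the match at the largest fall was that of Kcna5. In the 11 promoters of called members of the glucocorticoid list it occurred once, in Sgk1.

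**Figure D4:**
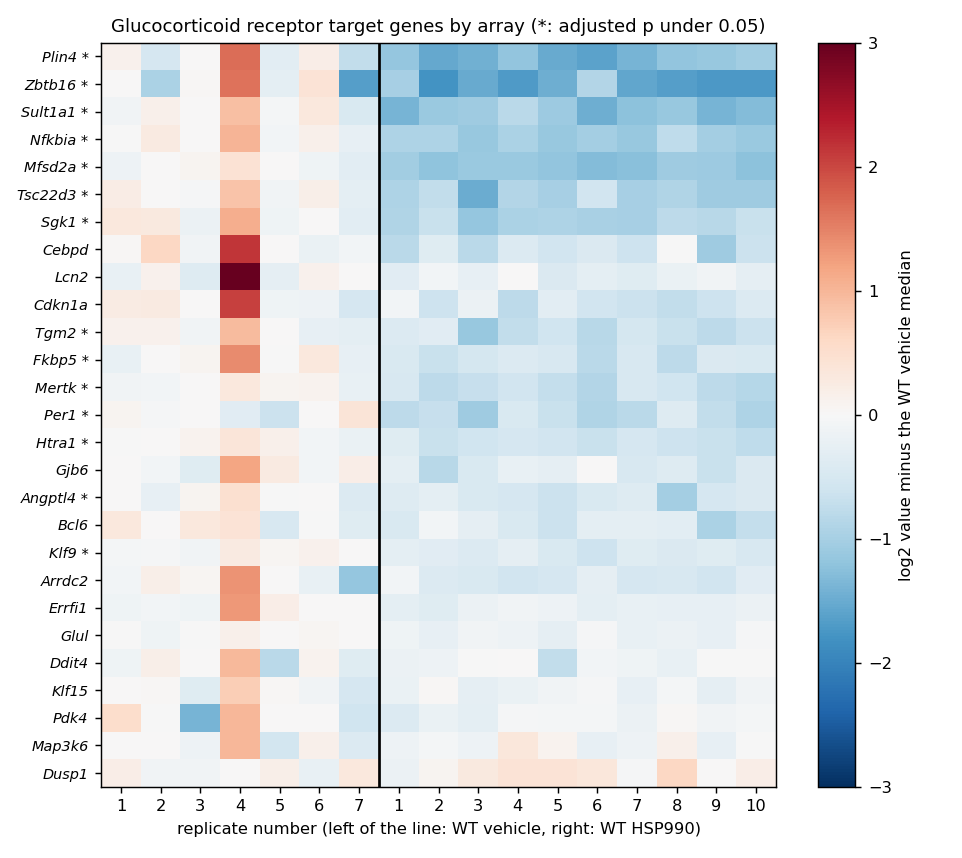
Log2 value of each of the 27 glucocorticoid receptor target genes minus its median over the wild-type vehicle arrays (colour), for each of 7 vehicle arrays (left of the line) and 10 HSP990 arrays (right); genes are ordered by their change and a star marks the 14 called genes. The treated arrays are blue across the upper rows, and vehicle replicate 4 is red in most rows; colours end at 3, which Lcn2 exceeds in that array (4.862).

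Besides Klf2 and Klf4, the list of 16 Kruppel-like factors gave a fall of Klf9 (13.13 to 13.49 on vehicle and 12.61 to 12.95 on HSP990, 1.36-fold, log2 change -0.45 ± 0.08, adjusted p = 0.000247) and a rise of Klf12 (0.25, adjusted p = 0.0396), with a median of -0.10. Klf12 was not called in 10 leave-one-out fits (adjusted p = 0.0519 to 0.117). In this list 3 genes were called lower and 1 higher (18.8% and 6.25%, beside 3.57% and 2.24% of all genes). Of 14 endothelial markers Esam and Sox17 were called lower (-0.46 and -0.67) and Flt1 higher (0.39), at 14.3% and 7.14% of the list. These 3 were named after their values were seen. The array mean of the 14 markers was 6.68 to 7.24 on vehicle and 6.84 to 7.13 on HSP990, with a median change of 0.06 (0.0095 without vehicle replicate 4), and a part of endothelial cell number in the falls of Klf2, Klf4, Mfsd2a, Slc2a1 and Nostrin was not tested. In bulk tissue fewer cells of a type and less RNA per cell cannot be told apart. Of 22 targets and feedback genes of NF-kappa-B 3 were called lower and none higher (13.6% and 0%): Nfkbia, Nfkbiz and Icam1. Nfkbiz, a nuclear relative of Nfkbia, was at 5.83 to 6.95 on vehicle and 5.32 to 5.89 on HSP990, with medians of 6.05 and 5.47 (1.64-fold, log2 change -0.71 ± 0.16, adjusted p = 0.00449). The second probe set of Nfkbiz had a change of -0.21 and was not called (adjusted p = 0.412). The adhesion gene Icam1, a dim gene, had a change of -0.51 (adjusted p = 0.0113), which without vehicle replicate 4 was -0.33 (adjusted p = 0.0117).

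Transcripts of 35 kinases and receptors that are HSP90 clients gave 2 calls higher and 2 lower, with a median of 0.00. Each way this was 5.71%, beside 2.24% and 3.57% of all genes. Fgfr2 and Ntrk2, receptors for fibroblast growth factors and for the neurotrophin BDNF, had changes of 0.49 and 0.39 (adjusted p = 0.0173 and 0.00957). For Ntrk2 5 of 8 probe sets moved upwards. Without vehicle replicate 3 or 4 Fgfr2 was not called (adjusted p = 0.0519 to 0.0525). The cell cycle kinase Wee1 was lower (-0.35, adjusted p = 0.00911), as was the progesterone receptor gene Pgr (-0.30, adjusted p = 0.042), which was not called in 11 leave-one-out fits (adjusted p = 0.0556 to 0.0914).

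Immediate early genes are those that neurons and glia induce within minutes of a stimulus. Of 29 analysed, 5 were called higher and 1 lower (17.2% and 3.45%, beside 2.24% and 3.57% of all genes). Their median was 0.15, and it was 0.10, 0.09 and 0.07 without vehicle replicates 1, 2 and 4 in turn. Besides Jun, Arc, a synaptic protein of neuronal activity, was at 7.46 to 8.75 on vehicle and 8.52 to 9.78 on HSP990, with medians of 8.26 and 9.17 (1.83-fold, log2 change 0.87 ± 0.20, adjusted p = 0.00613). Ccn1, a matrix protein, was at 5.19 to 5.99 on vehicle and 5.75 to 6.84 on HSP990, with medians of 5.69 and 6.34 (1.58-fold, log2 change 0.66 ± 0.14, adjusted p = 0.00292), and Gadd45b, a stress sensor, at 8.28 to 8.44 on vehicle and 8.38 to 8.97 on HSP990, with medians of 8.31 and 8.62 (1.25-fold, log2 change 0.32 ± 0.08, adjusted p = 0.0185). Atf3 made the fifth rise, and the fall was that of Per1. Among 15 genes that ERK signalling induces as feedback, Phlda1 was at 9.0 to 9.54 on vehicle and 9.84 to 10.12 on HSP990, with medians of 9.31 and 9.97 (1.63-fold, log2 change 0.70 ± 0.07, adjusted p = 5.69e-08), with no overlap, and the transcription factor Etv5 at 8.44 to 8.88 on vehicle and 8.64 to 9.29 on HSP990, with medians of 8.7 and 9.15 (1.37-fold, log2 change 0.46 ± 0.10, adjusted p = 0.00484). The ERK phosphatase Dusp7 was at 8.76 to 9.38 on vehicle and 8.17 to 8.64 on HSP990, with medians of 8.95 and 8.44 (1.5-fold, log2 change -0.59 ± 0.11, adjusted p = 0.000569), and Dusp6, another, was also lower (-0.63, adjusted p = 0.0393). Dusp6 was not called in 8 leave-one-out fits (adjusted p = 0.0505 to 0.112), and without vehicle replicate 7, its highest vehicle array, its change was -0.50. The ERK feedback list had 2 genes called higher and 2 lower (13.3% each way). Of 15 serum response factor targets only Ccn1 was called higher and only Srf itself lower (6.67% each way). Srf had a change of -0.28 (adjusted p = 0.0428), a call that failed in 13 leave-one-out fits (adjusted p = 0.0517 to 0.104).

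The cyclic AMP response element TGACGTCA was in 2.92% of all promoters, in 6.93% of those of genes called higher outside the chaperone list (21 of 303) and in 2.7% of those of genes called lower. Zfand2a, Cep57 and Mrpl16 were among the 21. The NRF2 site TGACNNNGC, searched on both strands, was in 16.2% of all promoters and 19.5% of those of genes called higher, and the E-box CACGTG in 10.2% and 10.0%.

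Of 18 Notch genes, 3 were called lower and 1 higher (16.7% and 5.56%, against 3.57% and 2.24% of all genes). The target Hes5 was at 7.27 to 8.34 on vehicle and 6.32 to 7.42 on HSP990, with medians of 7.77 and 7.15 (1.69-fold, log2 change -0.76 ± 0.14, adjusted p = 0.000377), the glycosyltransferase Lfng at 6.18 to 7.12 on vehicle and 5.68 to 6.83 on HSP990, with medians of 6.88 and 6.1 (1.52-fold, log2 change -0.61 ± 0.15, adjusted p = 0.011), and the receptor gene Notch1 at 8.26 to 8.68 on vehicle and 7.92 to 8.32 on HSP990, with medians of 8.53 and 8.1 (1.3-fold, log2 change -0.38 ± 0.06, adjusted p = 0.000238). The ligand gene Jag1 rose (0.49, adjusted p = 0.00158). The second probe sets of Hes5, Lfng, Notch1 and Jag1 had changes of -0.39, -0.03, -0.09 and 0.63. With these probe sets none of the genes was called (adjusted p = 0.068, 0.882, 0.551 and 0.095). Over the mean of the probe sets of each gene all were called. Of 23 BMP and TGF-beta genes the receptor Bmpr1a (0.35, adjusted p = 0.0103) and the target Id3 (0.49, adjusted p = 0.014) were called higher, and Id3 was not called without vehicle replicate 3 (adjusted p = 0.0526). In the list of 18 FOXO and insulin signalling genes, where 2 were called in each direction (11.1%), Arrdc4, an arrestin-like regulator of glucose uptake (0.62, adjusted p = 0.00019), and Sesn3 (0.45, adjusted p = 0.00076) rose, and the transcription factor gene Foxo3 (-0.43, adjusted p = 0.000321) and Sesn1 fell. None of 13 Wnt targets and none of 14 interferon-stimulated genes was called in the limma fit, although 2 and 3 had an unadjusted p under 0.05, and the smallest p were those of Ccnd1 (-0.38, adjusted p = 0.103) and Gbp3 (0.49, adjusted p = 0.0609).

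Among 21 clock and PAR bZIP genes, 3 were called lower and 1 higher (14.3% and 4.76%, beside 3.57% and 2.24% of all genes). Ciart, a repressor in the clock, was at 7.65 to 8.42 on vehicle and 6.9 to 7.68 on HSP990, with medians of 8.09 and 7.21 (1.71-fold, log2 change -0.77 ± 0.13, adjusted p = 0.00019), and Per1, a core repressor that glucocorticoids also induce, at 8.86 to 9.9 on vehicle and 8.44 to 9.12 on HSP990, with medians of 9.51 and 8.75 (1.59-fold, log2 change -0.67 ± 0.11, adjusted p = 0.00019). Per2 (-0.62, adjusted p = 0.0385) was lower and Npas2 (0.31, adjusted p = 0.043) higher, but each was not called in 12 leave-one-out fits (adjusted p = 0.0509 to 0.0962 and 0.0516 to 0.113).

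The called genes of splicing, hnRNPs and long noncoding RNAs were all higher, at 10.0%, 10.5% and 13% of their lists against 2.24% of all genes. Of 30 SR splicing factor, CLK kinase and TRA2 genes, 3 were called higher and none lower. The median was 0.13, and 24 changes were positive. Rsrp1, an arginine and serine rich protein, had values of 10.7, 11.07 and 11.22 on vehicle and 11.31, 11.54 and 11.76 on HSP990 and rose 1.47-fold (log2 change 0.55 ± 0.07, adjusted p = 5.79e-06), with no overlap. The splicing regulators Rbm25 and Rbm39 had smaller changes (0.30 and 0.24) that were not called in 7 and 9 leave-one-out fits (adjusted p = 0.0508 to 0.0965 and 0.0524 to 0.141). Of 19 hnRNP genes Hnrnpa2b1 was at 10.9 to 11.53 on vehicle and 11.23 to 11.85 on HSP990, with medians of 11.08 and 11.51 (1.31-fold, log2 change 0.39 ± 0.09, adjusted p = 0.00414), and Hnrnpm was also called (0.21, adjusted p = 0.0356), though not in 10 leave-one-out fits (adjusted p = 0.0505 to 0.088). Long noncoding RNAs gave 3 rises of 23: Neat1, Snhg5 and Snhg12. Snhg12, a host of small nucleolar RNAs, was at 8.89 to 9.2 on vehicle and 9.27 to 9.52 on HSP990, with medians of 8.99 and 9.38 (1.31-fold, log2 change 0.39 ± 0.09, adjusted p = 0.00706), and Snhg5, another, at 7.98 to 8.42 on vehicle and 8.54 to 8.97 on HSP990, with medians of 8.3 and 8.67 (1.43-fold, log2 change 0.52 ± 0.09, adjusted p = 0.000255), but 1 of the 3 probe sets of Snhg5 moved downwards. Zfp36l1 and Zfp36l2, which mark AU-rich messages for decay, rose (0.46, adjusted p = 0.00408, and 0.53, adjusted p = 0.00045), and the decay factor gene Cnot4 fell (-0.37, adjusted p = 0.015). The second probe set of Zfp36l2 had a change of 0.01, and Cnot4 was not called without vehicle replicate 3 (adjusted p = 0.0514). The cold-inducible gene Cirbp, the only one of its list analysed here, was not called (0.25, adjusted p = 0.467).

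None of 48 cytosolic ribosomal protein genes was called (median 0.00, smallest p in Rps4l, 0.45, adjusted p = 0.166), nor any of 17 elongation genes of P-TEFb (smallest p in Cdk12, 0.29, adjusted p = 0.064), and 3 and 6 of them had an unadjusted p under 0.05 in the limma fit. Of 75 mitochondrial ribosomal protein genes 2 were called higher, Mrps6 and Mrpl16 (0.24), and 2 lower, Mrpl41 (-0.40) and Mrps30 (-0.18). These were 2.67% each way, near the 2.24% and 3.57% of all genes. Without vehicle replicate 4 the number called lower was 6, and without vehicle replicate 7 it was 4. Mrpl16 and Mrps30 were not called in 10 and 11 leave-one-out fits (adjusted p = 0.0565 to 0.108 and 0.0584 to 0.122). Of 47 initiation factor genes 2 were called higher and 2 lower (4.26% each way). Eif5 was at 11.1 to 11.62 on vehicle and 11.56 to 11.92 on HSP990, with medians of 11.27 and 11.73 (1.34-fold, log2 change 0.42 ± 0.07, adjusted p = 0.000336), and Eif2s2 at 10.41 to 10.62 on vehicle and 10.6 to 10.98 on HSP990, with medians of 10.46 and 10.75 (1.21-fold, log2 change 0.27 ± 0.05, adjusted p = 0.000725). Both work with initiation factor 2, which brings the initiator transfer RNA, as does Eif2b2, which was lower (-0.30, adjusted p = 0.0387), as was Eif1b (-0.29, adjusted p = 0.0262). Eif2b2 was not called in 10 leave-one-out fits (adjusted p = 0.0516 to 0.0953), nor Eif1b without vehicle replicate 4 or 6 (0.0528 to 0.0582).

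Families of chromatin and transcription factor genes, apart from histone deacetylases and their partners, had called members in both directions, beside 2.24% of all genes called higher and 3.57% lower. Of 26 histone deacetylase, sirtuin and SIN3 genes, Sap30 and Sirt5, a mitochondrial deacylase (-0.34, adjusted p = 0.00133), were called lower, and the family median was -0.03. Of 19 histone genes the linker histone gene H1f2 was at 9.13 to 10.06 on vehicle and 10.07 to 10.67 on HSP990, with medians of 9.53 and 10.47 (1.95-fold, log2 change 0.97 ± 0.14, adjusted p = 2.38e-05), with no overlap, and H2az1 was lower (-0.29, adjusted p = 0.036), though not called in 7 leave-one-out fits (adjusted p = 0.0511 to 0.107). Of 18 lysine demethylase genes 2 were higher, Kdm5a (0.31) and Kdm8 (0.25), and 2 lower, Kdm2b (-0.35) and Kdm1a (-0.23). Of these, Kdm8 was not called in 8 leave-one-out fits (adjusted p = 0.0504 to 0.123), Kdm2b without vehicle replicate 1, 2 or 3 (0.057 to 0.073) and Kdm5a without vehicle replicate 1 or 5 (0.0585 to 0.0629). The zinc finger genes named Zfp, 331 in all, gave 14 rises (4.23%) and 15 falls (4.53%). Without vehicle replicate 3 these were 10 and 9. Zfp189 was at 5.19 to 6.42 on vehicle and 4.24 to 4.82 on HSP990, with medians of 5.4 and 4.43 (2.0-fold, log2 change -1.0 ± 0.18, adjusted p = 0.000336), Zfp518a at 5.25 to 6.14 on vehicle and 6.27 to 6.69 on HSP990, with medians of 6.09 and 6.47 (1.54-fold, log2 change 0.62 ± 0.10, adjusted p = 0.000111), and Zfp760 and Zfp276 had changes of 0.47 and -0.36. Of 39 ZBTB genes 5 were called lower, among them Zbtb16 and Zbtb2 (-0.38, adjusted p = 0.000486), and 1 higher, Zbtb38 (0.20, adjusted p = 0.0344). Zbtb38, Zbtb34 (-0.24) and Zbtb17 (-0.26) were not called in 10, 11 and 3 leave-one-out fits (adjusted p = 0.0503 to 0.0745, 0.0603 to 0.156 and 0.0524 to 0.0784), the last without vehicle replicates 1, 3 and 5. Bcl11a, a transcription factor of neurons, had values of 9.91, 10.05 and 10.3 on vehicle and 9.21, 9.4 and 9.59 on HSP990 and fell 1.61-fold (log2 change -0.69 ± 0.07, adjusted p = 2.56e-08), with no overlap and 6 of 7 probe sets downwards. Tsc22d1, a relative of Tsc22d3, fell with no overlap (-0.42, adjusted p = 5.49e-07), but over the mean of its 7 probe sets the change was -0.06 (adjusted p = 0.471).

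The called genes of cholesterol synthesis and of the respiratory chain were all lower. Of 21 cholesterol synthesis and SREBP target genes, 4 were called lower and none higher, with a median of -0.12. Mvd, an enzyme of the mevalonate pathway, was at 6.8 to 7.58 on vehicle and 6.33 to 6.71 on HSP990, with medians of 7.18 and 6.48 (1.53-fold, log2 change -0.61 ± 0.09, adjusted p = 5e-05), and Fdft1, the squalene synthase, at 9.75 to 10.46 on vehicle and 9.21 to 9.68 on HSP990, with medians of 10.17 and 9.46 (1.61-fold, log2 change -0.68 ± 0.11, adjusted p = 0.000127), both with no overlap. Stard4, a sterol carrier, and Tm7sf2, a sterol reductase, had changes of -0.45 and -0.42. Respiratory chain and ATP synthase subunits gave 6 falls and no rise of 77. Their median was -0.13, and 9 of the 77 changes were positive. The falls were small: Ndufv3 was at 11.44 to 11.79 on vehicle and 11.02 to 11.52 on HSP990, with medians of 11.73 and 11.35 (1.28-fold, log2 change -0.36 ± 0.08, adjusted p = 0.00372), Ndufa13 at 12.28 to 12.51 on vehicle and 12.07 to 12.32 on HSP990, with medians of 12.47 and 12.21 (1.17-fold, log2 change -0.23 ± 0.04, adjusted p = 0.00132) and Cox6b1 at 12.7 to 13.01 on vehicle and 12.51 to 12.82 on HSP990, with medians of 12.96 and 12.67 (1.19-fold, log2 change -0.24 ± 0.06, adjusted p = 0.0077). Ndufb8 (-0.20) and Cox7a2 (-0.21) had smaller changes. The second probe set of Ndufb8 had a change of 0.01, and Cox7a2 was not called in 4 leave-one-out fits (adjusted p = 0.0512 to 0.0631). The count of called subunits depended on 1 array, with 16 called without vehicle replicate 4 and 4 without vehicle replicate 1, 2 or 3. Of 14 glycolysis genes Pgk1 was called lower (-0.27, adjusted p = 0.00432). Of 332 solute carriers 10 were higher and 8 lower (3.01% and 2.41%), near the 2.24% and 3.57% of all genes, among them Slc26a10 (0.50, a dim gene), Slc7a4 (-0.59) and Slc35b2 (-0.46), and Cyp2s1 was the only called gene of 70 cytochrome P450 genes.

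Several neuronal lists held no called gene. None of 38 glutamate and GABA receptor genes (median 0.00), 12 dopamine and adenosine signalling genes of spiny neurons (0.09), 19 RGS genes (-0.08), 35 protocadherins (0.00) or 15 tubulins (-0.16) was called, and the numbers with an unadjusted p under 0.05 in the limma fit were 2, 1, 3, 1 and 5. The smallest p in these lists were those of Grin3b (-0.28, adjusted p = 0.105), Gnal (0.33, adjusted p = 0.139), Rgs16 (-0.21, adjusted p = 0.123), Pcdhb3 (-0.39, adjusted p = 0.109) and Tubb3 (-0.25, adjusted p = 0.0848). Of 16 neuropeptide genes Crh, which encodes corticotropin-releasing hormone, was at 6.15 to 8.1 on vehicle and 3.27 to 6.53 on HSP990, with medians of 6.73 and 4.9 (3.78-fold, log2 change -1.92 ± 0.47, adjusted p = 0.00956). Crh is dim and its ranges overlapped, with HSP990 replicates 3 and 6 inside the vehicle range. Of 84 potassium channel genes 1 was called higher and 3 lower (1.19% and 3.57%, no more than the 2.24% and 3.57% of all genes). Kcna5, a voltage-gated channel, was at 8.29 to 9.64 on vehicle and 7.62 to 8.43 on HSP990, with medians of 9.18 and 8.13 (2.1-fold, log2 change -1.07 ± 0.20, adjusted p = 0.000752), and Kcnk6, a background channel, at 6.18 to 6.85 on vehicle and 5.6 to 6.09 on HSP990, with medians of 6.68 and 5.79 (1.72-fold, log2 change -0.78 ± 0.09, adjusted p = 4.01e-07). The calcium-activated channel Kcnn2 was lower (-0.42, adjusted p = 0.0423, and 0.0526 to 0.0888 in 14 leave-one-out fits), and the modulatory subunit Kcns2 higher (0.33, adjusted p = 0.00801). Cacng3, which traffics AMPA receptors, was the only called gene of 35 sodium and calcium channel genes (2.86%). Its change was 0.76 (adjusted p = 0.0308), but it was not called in 9 leave-one-out fits (adjusted p = 0.05 to 0.0933). Pde4d, a phosphodiesterase, fell with no overlap (-0.32, adjusted p = 0.000819), as the only one of 21 (4.76%). Of 59 Rab genes, Rab39, Rab7b (0.60, adjusted p = 0.00075) and Rab39b (0.26) were higher and Rab33a (-0.35) and Rab40c (-0.26) lower. These were 5.08% and 3.39%, beside 2.24% and 3.57% of all genes. Rab39b was not called without vehicle replicate 3 (adjusted p = 0.0519), and the second probe set of Rab40c had a change of 0.13. Pkp2, a desmosomal protein, fell 2.05-fold (log2 change -1.03 ± 0.26, adjusted p = 0.0126), with vehicle replicate 7 inside the HSP990 range, and was not called without vehicle replicates 4 and 5 (adjusted p = 0.0594). Of 38 olfactory receptor genes and 44 keratin genes, families mostly used in other tissues, 1 was called, Olfr288 (-0.31), named after its values were seen.

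**Figure D5:**
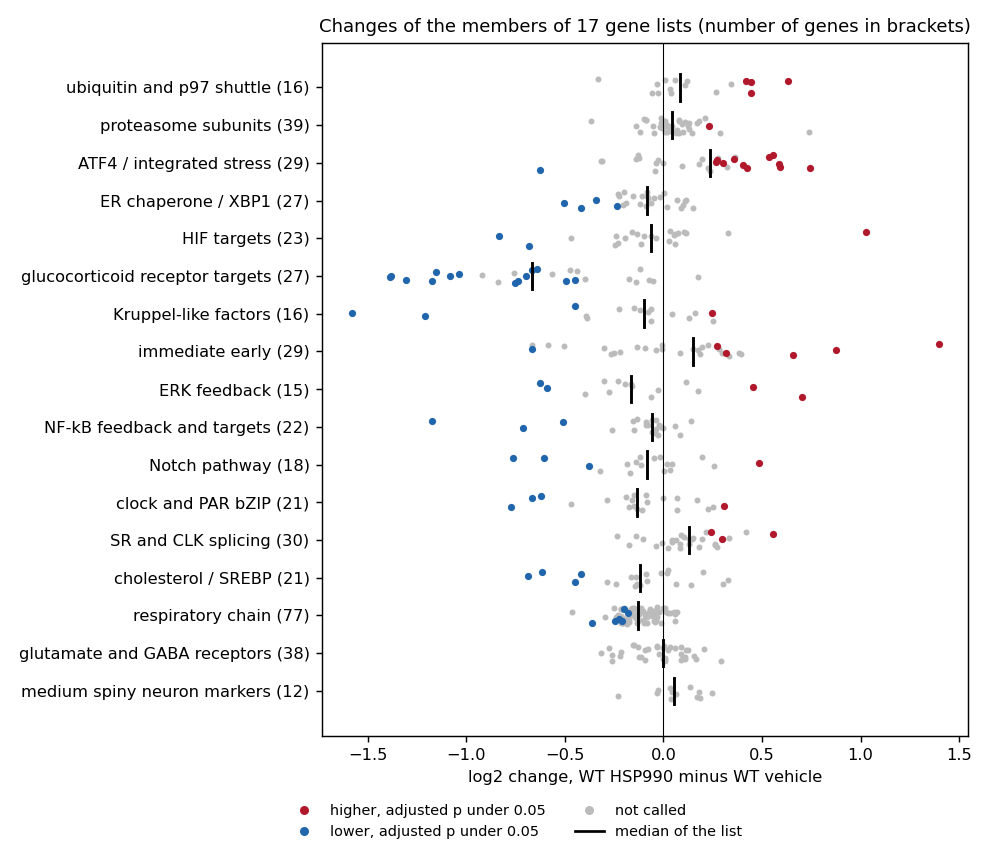
Log2 changes, wild-type HSP990 minus vehicle, of the members of 17 gene lists; each point is a gene (red higher and blue lower at an adjusted p under 0.05, grey not called), black bars are list medians and numbers in brackets are genes analysed. All called glucocorticoid receptor targets and respiratory chain genes lie left of 0 and 11 called ATF4 genes right of it, and the glutamate and GABA receptor and medium spiny neuron lists centre near 0.

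Markers of neighbouring tissue varied widely between arrays in both groups. The mean of 9 cortical markers was 6.54 to 8.68 on vehicle and 6.3 to 8.4 on HSP990 (median change -0.46), and that of 9 choroid plexus markers 5.29 to 8.68 and 5.31 to 9.23 (-0.56). Without vehicle replicate 4 these medians were -0.20 and -0.21. No member of either list was called (2 and 1 at an unadjusted p under 0.05 in the limma fit), and 160 of the 167 called genes named by the rule were still called with the cortical mean as a covariate and 157 with the choroid plexus mean. All 11 myelin markers had positive changes (median 0.26). None was called in the limma fit, where 3 had an unadjusted p under 0.05. Single glial markers were called, Sox9 of astrocytes (0.68) and Olig2 of the oligodendrocyte lineage (0.60), of 10 and 6 markers, and were named after their values were seen. No marker of microglia, interneurons, pericytes, diencephalic neurons or red blood cells was called (2, 3, 0, 1 and 0 at an unadjusted p under 0.05 in the limma fit).

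The same genes were set beside their change in R6/2 mice, a comparison of 8 and 7 other arrays in which 2.18% of genes were called higher and 0.918% lower. That comparison includes R6/2 HSP990 replicate 5, whose 3′ bias of 4.56 was the highest of all arrays. Of the 407 genes higher in wild type, 352 had a positive change in R6/2 and 132 were called there, with a median change of 0.21. Of the 649 lower in wild type, 463 had a negative change and 68 were called, with a median of -0.09. Since these genes were chosen on their wild-type values, a smaller change in other arrays is no result. Rab39, Cyp2s1, Tnfsf9, Cys1 and P4ha2 had R6/2 changes of 1.94, 1.49, 1.22, 1.0 and 0.92. Neat1, Smco3 and Nnat had 0.60, 0.34 and 0.10, and Mpp7 and Crh 0.05 and -0.14, none of them called in R6/2. The interaction test, in which 0.247% of all genes were called, passed for 11 genes called higher in wild type and 17 called lower. Among the genes of the naming rule it passed for Bcl11a, Fbxo28, Hspa1a, Kcns2, Pcdhb3 and Sap30.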

How the data were processed

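RNA of mouse striatum was labelled with a 3′ in vitro transcription kit and hybridised to 1-colour oligonucleotide arrays, 1 array per sample, per the labels' protocols. The authors deposited log2 values that were already normalised between arrays; how they were summarised and normalised is not stated there. Of 45101 probe sets, 64 were controls, 34945 had 1 gene symbol, 932 several and 9160 none; for 204 of the single-symbol ones the table of current names held no matching identifier. The probe set with the highest mean stood for each of 18193 genes (9010 had more than 1). limma 3.58.1 (R 4.3.3) was fitted to 4 group means over all 32 arrays, with 28 residual degrees of freedom, plain eBayes, two-sided tests and Benjamini-Hochberg adjustment over all genes, and called genes at 0.05. The same gene-wise test on simulated data recovered 18% of 50 genes changed by 0.25 on the log2 scale, 80% at 0.5, 96% at 1 and 98% at 2. The simulation used independent normal noise without outlying arrays and changed fewer genes than were called here. Recovery in the real arrays may differ.

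Groups were taken from the array titles. Outside the chaperone list and clone names, the text names the 15 largest rises and falls and the 10 with the smallest p each way. It also names up to 5 called members of each list and the member with the smallest p of a list with no call. Others are said to be named after their values were seen. Whether a call was lost without 1 array is given by gene only for the genes named by the rule. Members and lists were chosen with earlier results of these data known, so their counts are descriptions. Promoters came from the RefSeq table (GRCm38.p6). No array was left out of the fit.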

Additional observations from a re-analysis of the deposited data

Results flagged for a closer look

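In 26 of 364 groups of arrays (182 named genes in the vehicle and the HSP990 group) 1 array lay far from the rest by Dixon's test, which chance gives in about 1 group in 20. Vehicle replicate 4 accounted for 7. It was the highest vehicle array for Plin4 (8.5, others 6.1 to 7.02), Nfkbia (11.36, others 10.11 to 10.62), Icam1 (5.62, others 4.24 to 4.63), Zfp189 (6.42, others 5.19 to 5.53), Jun (8.13, others 7.33 to 7.67) and Ntrk2 (11.19, others 10.45 to 10.64), and the lowest for Rab7b (5.12, others 5.56 to 5.8). Vehicle replicate 7 was the lowest vehicle array for Kcna5 (8.29, others 9.07 to 9.64), Hif3a (6.72, others 7.22 to 7.57) and Kcnk6 (6.18, others 6.59 to 6.85), and the highest for Dusp6 (9.44, others 8.34 to 8.65). Vehicle replicate 3 was the lowest for Nfe2l2 (6.89, others 7.4 to 7.68).

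HSP990 replicate 6 accounted for 6. It was the highest treated array for Nnat (10.88, others 9.36 to 9.85) and Klf2 (5.21, others 4.69 to 4.97), and the lowest for Cyp2s1 (8.23, others 8.98 to 9.59), Usp3 (7.16, others 7.45 to 7.62), Zbtb38 (8.76, others 8.92 to 9.07) and Cox7a2 (12.44, others 12.6 to 12.68). HSP990 replicate 2 was the highest for Bag3 (8.68, others 7.75 to 8.05), Slc5a3 (10.94, others 10.29 to 10.62), Mrps6 (10.21, others 9.71 to 9.96) and Plod1 (8.41, others 7.62 to 8.04). HSP990 replicate 4 was the lowest for Trim17 (6.77, others 7.19 to 7.63) and Usp42 (8.3, others 8.5 to 8.7), replicate 1 for Etv5 (8.64, others 9.07 to 9.29) and replicate 5 for Hes5 (6.32, others 6.87 to 7.42).

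For 6 of the named genes limma's interaction test found a change in R6/2 that differed from that in wild type. The R6/2 change minus the wild-type change was 0.49 for Bcl11a (adjusted p = 0.0233), 0.6 for Fbxo28 (0.0143), 0.74 for Sap30 (0.00312) and 0.91 for Pcdhb3 (0.0476), against wild-type changes of -0.69, -0.38, -1.0 and -0.39. It was -1.61 for Hspa1a (0.00543) and -0.74 for Kcns2 (0.00139), against wild-type changes of 5.31 and 0.33.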

How the results depend on the processing

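Of the 167 called genes named by the rule, 73 kept their direction and call under every alternative run, 103 under every one but the second probe set, and 127 with each of the 17 wild-type arrays left out. The 1056 called genes kept their sign under each alternative that neither exchanges probe sets nor drops genes, and the 925 tested above the median level kept it there. Leaving out each array gave 768 to 1169 called genes, 310 to 423 higher and 458 to 765 lower. Of the 1056 called genes the fewest, 734, kept their call without vehicle replicate 3. The count rose to 1815 (640 higher and 1175 lower) with array weights. With the second probe set, where 642 of the called genes could be tested, 431 were called (262 higher and 169 lower), 568 of the 642 kept their sign and 173 their call. With 3′ bias as a covariate in the 17 wild-type arrays, an alternative chosen after seeing the data, 706 were called higher and 645 lower, so that rises outnumbered falls, as with the second probe set. Replicate numbers are shared by the groups. The same-numbered deviations of wild-type arrays correlated at -0.221 to 0.367, and only replicate 5 matched its own number best. Correlations over all genes of so few arrays cannot decide whether same-numbered arrays share a batch. With a replicate block 655 genes were called (295 higher and 360 lower), and Crh and Pkp2 had adjusted p = 0.0626 and 0.0629 in that limma fit. Other settings stayed within 1.5 times: quantile normalisation called 1129, the wild-type arrays alone 1394, 3′ bias in the full fit 1015, and the fit without vehicle replicates 4 and 5 1030. The second probe set reversed Atg4d (0.1125), Cars (-0.0735), Cybc1 (-0.0319), Ndufb8 (0.0063), Neat1 (-0.0667), Plod1 (-0.0299), Rab40c (0.1263), Slc35b2 (0.1531) and Snhg5 (-0.1215); the cause was not tested. Array number limits small changes: 104 of the calls lower and 35 of those higher are under 0.25 on the log2 scale, a size the fit detects poorly.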

Other observations

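Creb5, a transcription factor that binds the cyclic AMP response element, rose with HSP990 and holds that element in its own promoter window. It was named after its values were seen. Its values were 4.35, 5.76 and 6.02 on vehicle and 5.69, 6.42 and 6.97 on HSP990, and it rose 1.95-fold (log2 change 0.96 ± 0.20, adjusted p = 0.0017). The next largest rises among the 21 genes with the element outside the chaperone list were Zfand2a (0.63), Nfkbid (0.62), an inhibitor of NF-kappa-B, and Lsm2 (0.61), a subunit of splicing and decay complexes.

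Atf5 and Mthfd2, further members of the ATF4 list named after their values were seen, had changes of 0.59 (adjusted p = 0.0141) and 0.30 (0.0361). Of the glucocorticoid receptor targets not described before, Tgm2, a transglutaminase, had a change of -0.75 (0.000935), Htra1, a secreted protease, -0.64 (0.000385), and Angptl4, an inhibitor of lipoprotein lipase, -0.49 (0.00756). Lcn2, which encodes the iron-binding protein lipocalin, was 4.862 above the vehicle median in vehicle replicate 4, while the other 16 wild-type arrays lay between -0.444 and 0.14 of it.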
